A study of Mus musculus with 203 samples.

Results

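Lung parenchyma from mice exposed to house dust mite (HDM) and cigarette smoke (CS) and then given dexamethasone (DEX), the group HDM.CS.DEX, was compared with parenchyma from mice given phosphate-buffered saline (PBS) and air and no steroid, the group PBS.AIR. Libraries were chosen by their titles, 10 in each group, which makes 20 of the 160 RNA-seq libraries taken at 11 weeks, beside 43 at 3 weeks. All mice were female Balb/C mice, 18 to 20 weeks old. HDM was given 3 times per week in weeks 4 to 11, smoke 2 times per day on 5 days per week for 8 weeks, and dexamethasone was given during week 11, the week of collection. PBS.AIR mice had the vehicle and air in place of both exposures. The comparison asks what differs from the untreated lung after both exposures although the steroid was given, so it sets 3 treatments together against none. By itself it cannot tell which treatment moved a gene. For some genes and lists, values from other 11-week parenchyma groups of 10 libraries each are therefore given side by side. These groups are HDM.CS (both exposures, no steroid), PBS.AIR.DEX (steroid alone), PBS.CS.DEX (smoke and steroid) and HDM.AIR.DEX (HDM and steroid). The dose and route of dexamethasone and the number of mice are not given in the sources used here, and no label states that each library is a separate mouse. p-values therefore set a difference against the spread between libraries, not a known spread between mice. That spread was estimated over all 160 libraries at 11 weeks, of both tissues.

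HDM is an allergen extract that is taken up by airway dendritic cells and drives type 2 and IL-17 responses with eosinophils, neutrophils, antibody-producing cells and mucus. Cigarette smoke loads alveolar macrophages with lipid and debris, induces xenobiotic and antioxidant enzymes through the aryl hydrocarbon receptor and NRF2, and recruits neutrophils and monocytes. Dexamethasone binds the glucocorticoid receptor, which induces genes such as Fkbp5 and Tsc22d3, represses many cytokine genes and lowers lymphocyte and eosinophil numbers in blood and tissue. In bulk tissue, fewer cells of a type and less RNA per cell cannot be told apart.

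Library totals were even, from 24692020 to 34942441 estimated counts in HDM.CS.DEX and from 22011675 to 29773989 in PBS.AIR. 1 library in each group stood apart from the rest of its group. HDM.CS.DEX replicate 8 had 249 genes at least 2-fold above all 9 other libraries of that group, where the others had 0 to 8 such genes, and cell cycle and matrix genes were among them: Mki67 stood at 95.4 CPM (counts scaled to a common library size), and Tnc at 148.7 CPM. PBS.AIR replicate 7 had 43 such genes, where the others had 0 to 19, and several are genes that rose in HDM.CS.DEX: Ighg1 stood at 449 CPM and Gpnmb at 88.9 CPM in this control library. Without both libraries 1400 genes were called higher and 680 lower, against 1382 and 737 with them. The gene lists used below are read with and without these libraries where a count of calls changed. Lung markers were at high levels in both groups: Sftpc, the surfactant protein of alveolar type II cells, ran from 11943 to 21859 CPM (median 15422) in PBS.AIR and from 10825 to 17714 CPM (median 13916) in HDM.CS.DEX, and Scgb1a1, the club cell secretory protein, ran from 15072 to 28221 CPM (median 21352) in PBS.AIR and from 16231 to 27029 CPM (median 20982) in HDM.CS.DEX.

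HDM.CS.DEX parenchyma differed widely from PBS.AIR parenchyma. Of 18250 genes tested, 1382 (7.57%) were called higher and 737 (4.04%) lower, where a call needs a Benjamini-Hochberg adjusted p under 0.05 in limma-voom and a log2 fold change (log2FC) of at least 1 in either direction. Of the called genes, 793 (4.35% of genes tested) had all 10 HDM.CS.DEX libraries above all 10 PBS.AIR libraries, and 430 (2.36%) had all 10 below. With the adjusted p alone, 4810 genes (26.4%) passed as higher and 4540 (24.9%) as lower, and over all genes tested, called or not, 1635 (8.96%) had no overlap as higher and 1345 (7.37%) as lower. A test against a log2FC of 1 in place of 0 called 2.62% higher and 0.86% lower. A filter of 10 CPM, which tested 12187 genes, left calls equal to 3.38% and 1.70% of the 18250. With only the 2 groups compared in the fit, 1120 genes were called higher and 619 lower, of 16123 tested. The median log2FC over all genes tested was 0.005. The other comparisons, some of which share a group of libraries with this one, are given side by side with it. HDM.CS without the steroid had 1583 genes (8.67%) higher and 451 (2.47%) lower than the same PBS.AIR libraries. Dexamethasone alone, PBS.AIR.DEX against PBS.AIR, gave 1.02% of genes higher and 391 (2.14%) lower. Set directly against HDM.CS, the HDM.CS.DEX libraries had 21 genes (0.115%) higher and 350 (1.92%) lower. Against PBS.AIR.DEX, which holds the steroid constant, they had 1223 (6.7%) higher and 341 (1.87%) lower. Against PBS.CS.DEX, where HDM is the difference, 611 (3.35%) were higher and 78 (0.427%) lower, and against HDM.AIR.DEX, where smoke is the difference, 0.581% of genes were higher and 219 (1.2%) lower. On the first principal component of the 8 parenchyma groups, which held 69.4% of the variance of the 500 most variable genes, HDM.CS.DEX libraries lay from -1.75 to 17.9, HDM.CS libraries from 13.0 to 33.8 and PBS.AIR libraries from -33.4 to -11.3.

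**Figure D1:**
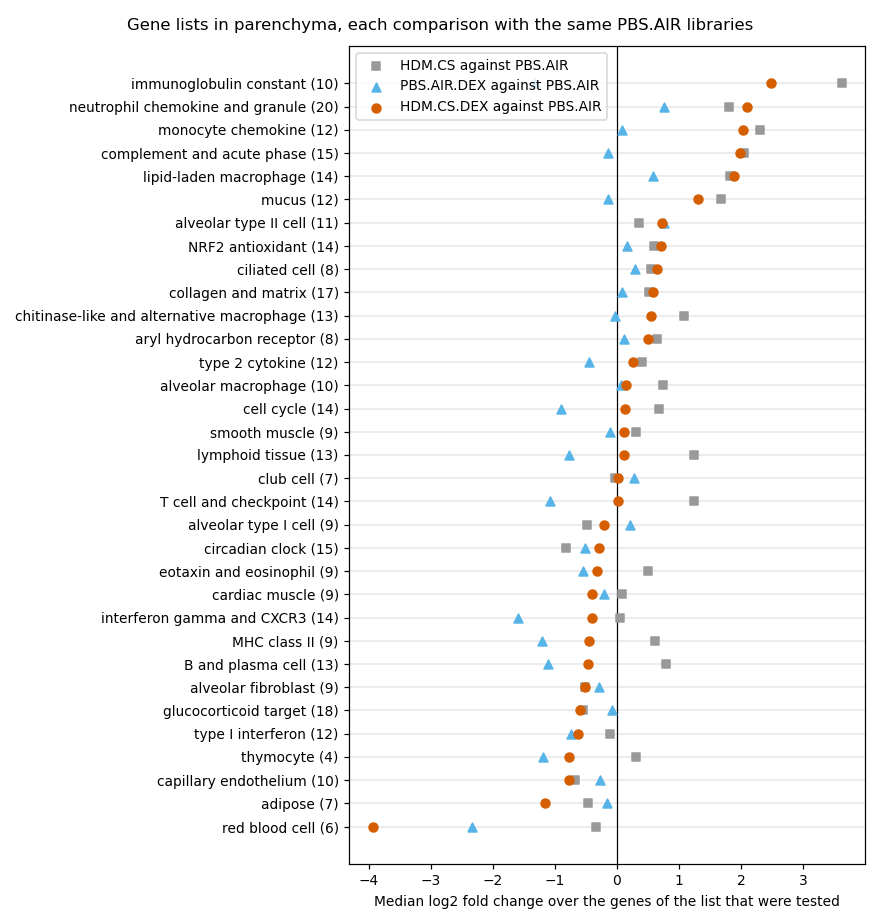
Median log2FC (horizontal axis) of each gene list in parenchyma, with the number of genes tested in brackets: orange circles show HDM.CS.DEX, grey squares HDM.CS and blue triangles PBS.AIR.DEX, each against the same 10 PBS.AIR libraries. Immunoglobulin, neutrophil, monocyte chemokine, complement and lipid-laden macrophage lists lie furthest right in HDM.CS.DEX (medians 2.48, 2.10, 2.04, 1.99 and 1.89), while the red blood cell list lies at -3.93.

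The largest rises, taken among called protein-coding genes whose groups did not overlap, belong to lipid, cytokine, acute phase and epithelial genes. Awat1, an acyltransferase that makes wax esters (GRCm38 chromosome X, bases 100572251 to 100578205), ran from 0 to 1.11 CPM (median 0.0534) in PBS.AIR and from 4.12 to 20.6 CPM (median 9.96) in HDM.CS.DEX (log2FC 7.33 ± 1.15, adjusted p = 1.97e-08). All 10 treated libraries lay above the control range, and PBS.AIR.DEX was also higher than PBS.AIR (log2FC 4.76, adjusted p = 0.00143). Il17f, a neutrophil-recruiting cytokine made by T helper 17 and innate lymphoid cells (chromosome 1, bases 20777146 to 20790617), ran from 0 to 1.40 CPM (median 0) in PBS.AIR and from 1.65 to 6.49 CPM (median 2.58) in HDM.CS.DEX (log2FC 6.31 ± 0.72, adjusted p = 1.11e-13). It was lower in HDM.CS.DEX than in HDM.CS (log2FC -1.80, adjusted p = 9.03e-10), yet its lowest treated library lay above the highest control. Gp2, a receptor for bacteria on the M cells of mucosal epithelium, ran from 0.203 to 8.47 CPM (median 0.687) in PBS.AIR and from 18.8 to 41.3 CPM (median 30.6) in HDM.CS.DEX (log2FC 5.18 ± 0.71, adjusted p = 2.07e-10). Fabp7, a fatty acid-binding protein, Slc6a12, a betaine and GABA transporter, and Spink5, a serine protease inhibitor of epithelia, had log2FC values of 5.27, 5.25 and 5.17. The gene with the smallest p among those higher was Pigr, the receptor that carries polymeric IgA across epithelium (chromosome 1, bases 130826684 to 130852249), which ran from 49.9 to 218 CPM (median 88.9) in PBS.AIR and from 620.4 to 1333 CPM (median 1094) in HDM.CS.DEX (log2FC 3.58 ± 0.14, adjusted p = 3.65e-52). Every treated library held more Pigr than every control library. Its log2FC was 3.75 in HDM.CS and 0.65 in PBS.AIR.DEX, both against PBS.AIR.

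Neutrophil genes were raised almost throughout. Of the 20 genes of the neutrophil chemokine and granule list, 18 were called higher and none lower in HDM.CS.DEX, against 7.57% higher among all genes. In 13 of the 20 the groups did not overlap, against 8.96% of all genes as higher. The list's median log2FC was 2.10, beside 1.81 in HDM.CS and 0.76 in PBS.AIR.DEX. Among the chemokines, Cxcl5, made by alveolar epithelium and a ligand of CXCR2, ran from 2.45 to 10.3 CPM (median 6.21) in PBS.AIR and from 72.03 to 229 CPM (median 115.8) in HDM.CS.DEX (log2FC 4.48 ± 0.58, adjusted p = 2.82e-11). Cxcl1, another CXCR2 ligand, ran from 2.98 to 7.11 CPM (median 3.92) in PBS.AIR and from 34.6 to 90.4 CPM (median 54.2) in HDM.CS.DEX (log2FC 3.81 ± 0.40, adjusted p = 1.68e-15). Both were separated from the controls in every library. Il17a, the cytokine that induces these chemokines in epithelium, ran from 0 to 2.51 CPM (median 0.134) in PBS.AIR and from 3.11 to 13.5 CPM (median 4.17) in HDM.CS.DEX (log2FC 4.86 ± 0.68, adjusted p = 6.22e-10). Its highest control value came from PBS.AIR replicate 7, and without that library the log2FC was 5.26. Lcn2, an iron-siderophore-binding protein of neutrophils and epithelium, ran from 41.8 to 273 CPM (median 98.8) in PBS.AIR and from 1391 to 2778 CPM (median 1904) in HDM.CS.DEX (log2FC 4.09 ± 0.24, adjusted p = 4.9e-33). Saa3, an acute phase apolipoprotein, ran from 1.65 to 39.7 CPM (median 21.2) in PBS.AIR and from 309.5 to 543 CPM (median 399) in HDM.CS.DEX (log2FC 4.74 ± 0.37, adjusted p = 1.99e-23). S100a8, a subunit of calprotectin that neutrophils hold in bulk, moved less and ran from 28.4 to 140.7 CPM (median 45.9) in PBS.AIR and from 151.3 to 253 CPM (median 179.9) in HDM.CS.DEX (log2FC 1.86 ± 0.28, adjusted p = 7.12e-09). The groups did not overlap for any of these 6 genes, and of the 6 Il17a alone was called lower in HDM.CS.DEX than in HDM.CS (log2FC -1.69, adjusted p = 5.87e-07).

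Monocyte chemokines and acute phase genes were mostly above the controls. Of 12 genes in the monocyte chemokine list, 10 were called higher and none lower, with no overlap between the groups in 10. Among all genes 7.57% were called higher and 8.96% had no overlap as higher. Ccl2, the main ligand of CCR2 on inflammatory monocytes, ran from 0.573 to 2.67 CPM (median 1.39) in PBS.AIR and from 12.1 to 32.7 CPM (median 18.2) in HDM.CS.DEX (log2FC 3.65 ± 0.39, adjusted p = 5.45e-15). Its median was higher than in HDM.CS, where it stood at 10.6 CPM, a difference under the limit for a call (log2FC 0.85, adjusted p = 0.011). Ccl3, a chemokine that draws monocytes and other leukocytes, ran from 1.21 to 3.86 CPM (median 2.01) in PBS.AIR and from 16.7 to 45.9 CPM (median 19.1) in HDM.CS.DEX (log2FC 3.37 ± 0.34, adjusted p = 1.86e-16). Ccl9 and Ccl7 had log2FC values of 2.78 and 2.84. Ccl8 was the exception in its response to the steroid: it ran from 0.885 to 14.0 CPM (median 3.12) in PBS.AIR and from 7.57 to 22.4 CPM (median 11.5) in HDM.CS.DEX, remained higher than in the controls (log2FC 1.91 ± 0.49, adjusted p = 0.000566) and was lower than in HDM.CS (log2FC -1.88, adjusted p = 8.46e-06). In the complement and acute phase list, 11 of 15 genes were called higher (10 without HDM.CS.DEX replicate 8) and none lower, and none was called lower in HDM.CS.DEX than in HDM.CS. Orm1, an acute phase glycoprotein (chromosome 4, bases 63344560 to 63348163), ran from 0.318 to 5.18 CPM (median 1.14) in PBS.AIR and from 39.97 to 89.5 CPM (median 58.3) in HDM.CS.DEX (log2FC 5.79 ± 0.52, adjusted p = 2.46e-19). Orm1 and its neighbour Orm2 (log2FC 5.17) are near-identical copies, so how reads were split between them is uncertain. C3ar1, the receptor for the C3a fragment on myeloid cells, ran from 4.07 to 9.21 CPM (median 5.19) in PBS.AIR and from 41.7 to 59.8 CPM (median 53.9) in HDM.CS.DEX (log2FC 3.26 ± 0.18, adjusted p = 8.04e-35). Cfb, the protease subunit of the alternative complement pathway, ran from 27.4 to 96.2 CPM (median 38.9) in PBS.AIR and from 250.4 to 417 CPM (median 312) in HDM.CS.DEX (log2FC 2.92 ± 0.20, adjusted p = 4.71e-28). C3 itself had a log2FC of 1.60, again with no overlap between the groups.

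**Figure D2:**
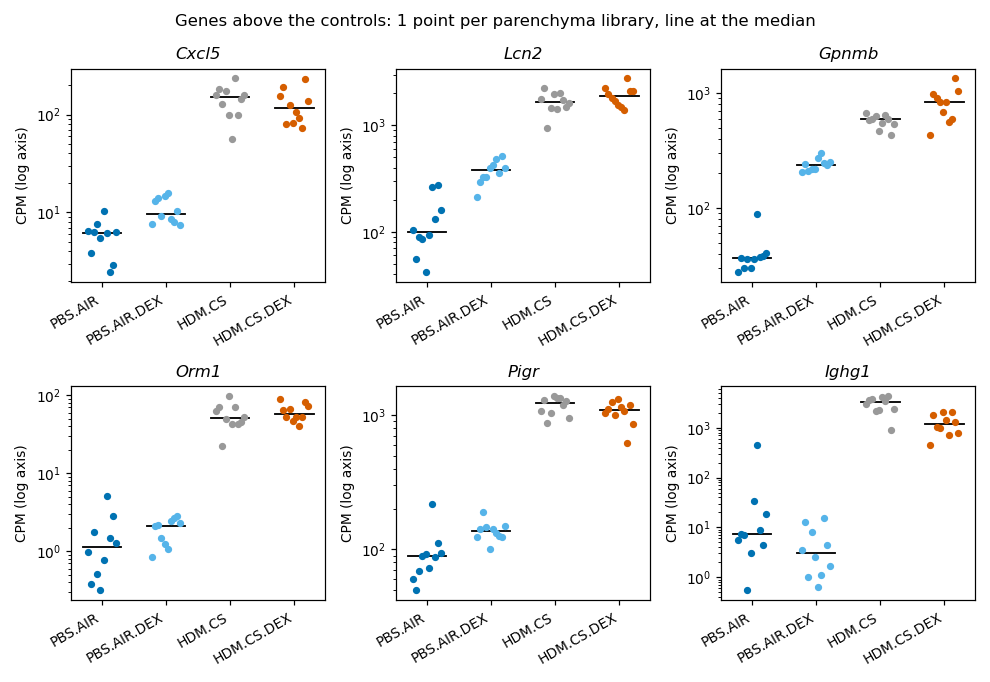
CPM on a log axis of 6 genes that were higher in HDM.CS.DEX than in PBS.AIR, in the 10 parenchyma libraries of each of 4 groups (points) with the group median (line). The lowest HDM.CS.DEX library lies above the highest PBS.AIR library in every panel. For Ighg1 the highest PBS.AIR point, replicate 7 at 449 CPM, comes just under the lowest HDM.CS.DEX point at 457 CPM.

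Macrophage genes of lipid handling and tissue breakdown were raised together. In the lipid-laden macrophage list 11 of 14 genes were called higher and none lower, all 11 with no overlap. Among all genes 7.57% were called higher, and 4.35% were called higher with no overlap. The list's summed level was 6480 to 9474 CPM (median 7988) in HDM.CS.DEX and 2983 to 3604 CPM (median 3281) in PBS.AIR. The median log2FC was 1.89, beside 1.82 in HDM.CS, and 1 member passed the adjusted p as lower in HDM.CS.DEX than in HDM.CS, below the log2FC limit. Gpnmb, a transmembrane glycoprotein of lipid-loaded macrophages, ran from 27.7 to 88.9 CPM (median 36.5) in PBS.AIR and from 434 to 1346 CPM (median 843) in HDM.CS.DEX (log2FC 4.37 ± 0.25, adjusted p = 8.04e-35). Mmp12, the macrophage elastase, ran from 18.1 to 113.2 CPM (median 34.1) in PBS.AIR and from 218 to 874 CPM (median 503) in HDM.CS.DEX (log2FC 3.58 ± 0.26, adjusted p = 2.43e-25). Trem2, a lipid-sensing receptor, ran from 3.98 to 17.4 CPM (median 5.15) in PBS.AIR and from 44.7 to 86.97 CPM (median 57.5) in HDM.CS.DEX (log2FC 3.37 ± 0.24, adjusted p = 2.33e-26). Ctsk, a cathepsin that digests collagen and elastin, ran from 57.8 to 152.9 CPM (median 69.1) in PBS.AIR and from 588 to 1173 CPM (median 749) in HDM.CS.DEX (log2FC 3.38 ± 0.21, adjusted p = 3.65e-31). The steroid alone raised some of these genes in unexposed lung: PBS.AIR.DEX against PBS.AIR gave a log2FC of 2.65 for Gpnmb (adjusted p = 3.19e-18) and 1.99 for Ctsk (adjusted p = 7.61e-15). The effect of the exposures therefore depended on the steroid in the test of that difference, (HDM.CS.DEX minus PBS.AIR.DEX) minus (HDM.CS minus PBS.AIR), which gave -2.19 for Gpnmb (adjusted p = 1.44e-05) and -1.94 for Ctsk (adjusted p = 1.06e-05). Over all genes 77 (0.422%) passed this interaction test as higher and 0.805% as lower, and 5 of the 14 list members were among the lower ones. These counts depend on the model, from 0 higher and 1 lower in a test against a log2FC of 1 to 490 and 757 genes with library quality weights. The smallest p among lower genes fell to Trim29 (-1.59), Gpr55 (-1.37), Cxcr1 (-3.93) and Plet1 (-1.13), where each value is a difference of log2FC. Of the other genes described here, the interaction also passed as lower for Awat1 (-4.38, adjusted p = 0.0493), Lcn2 (-1.51), Cd68 (-1.06), Pigr (-0.81) and C3 (-0.68), and as higher for Serpinb9b (1.30). Cxcr1, a neutrophil receptor for CXC chemokines, ran from 1.79 to 3.95 CPM (median 2.12) in PBS.AIR and from 4.12 to 38.8 CPM (median 18.7) in HDM.CS.DEX (log2FC 3.02 ± 0.51, adjusted p = 1.64e-07), while dexamethasone alone gave a log2FC of 4.12 (adjusted p = 2.98e-11).

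Markers of alveolar macrophages split. In that list 4 of 10 genes were called higher and 1 lower, against 7.57% and 4.04% of all genes. The list's summed level rose from 814 to 1398 CPM (median 894) in PBS.AIR to 2057 to 5545 CPM (median 4086) in HDM.CS.DEX. Chil3, a chitinase-like secreted protein that makes up most of that sum, ran from 397 to 803 CPM (median 455) in PBS.AIR and from 1468 to 4539 CPM (median 3275) in HDM.CS.DEX (log2FC 2.71 ± 0.34, adjusted p = 1.23e-11). Reads of Chil3 and its close copy Chil4 may be split uncertainly. Marco, a scavenger receptor that defines these cells, ran from 15.0 to 38.6 CPM (median 20.8) in PBS.AIR and from 33.7 to 99.5 CPM (median 63.1) in HDM.CS.DEX (log2FC 1.45 ± 0.30, adjusted p = 1.55e-05). Its ranges overlapped. Pparg, the transcription factor that the cells need, had a log2FC of 0.62 and was not called. Cd68, a lysosomal macrophage protein, ran from 35.7 to 81.7 CPM (median 45.9) in PBS.AIR and from 239 to 430.0 CPM (median 288) in HDM.CS.DEX (log2FC 2.66 ± 0.17, adjusted p = 4.6e-30). Fabp1, a fatty acid-binding protein of mature alveolar macrophages, went the other way and ran from 7.42 to 12.4 CPM (median 9.61) in PBS.AIR and from 0.367 to 2.52 CPM (median 1.28) in HDM.CS.DEX (log2FC -3.34 ± 0.40, adjusted p = 9.21e-13). All 10 treated libraries lay below all 10 controls for Fabp1, and its log2FC was -2.10 in HDM.CS and -2.07 in PBS.AIR.DEX, both against PBS.AIR. Of the chitinase-like and alternative macrophage list, 4 of 13 genes were called higher and none lower. Without HDM.CS.DEX replicate 8 the count was 3, since Chit1, whose highest level in any library of either group was 0.401 CPM, was lost. Retnla, a resistin-like protein of macrophages and epithelium, ran from 14.1 to 218 CPM (median 59.7) in PBS.AIR and from 275 to 603 CPM (median 389) in HDM.CS.DEX (log2FC 2.80 ± 0.29, adjusted p = 1.27e-15). Arg1, the arginine-degrading enzyme of alternatively activated macrophages, had a log2FC of 1.06 with overlapping groups (adjusted p = 0.149), beside 1.98 in HDM.CS. It was called in 3 of 31 alternative settings, among them edgeR and DESeq2 (1.15 and 1.15).

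Antibody genes stayed far above the controls while B cell genes did not. In the immunoglobulin constant list 6 of 10 genes tested were called higher and 1 lower, against 7.57% and 4.04% of all genes. Iglc1 was too low to test. The lower call, Ighd of naive B cells (log2FC -1.004), was lost without HDM.CS.DEX replicate 8. Ighg1, the constant region of IgG1, ran from 0.553 to 449 CPM (median 7.27) in PBS.AIR and from 457 to 2098 CPM (median 1184) in HDM.CS.DEX (log2FC 6.96 ± 0.58, adjusted p = 2.01e-21). The control value of 449 CPM is PBS.AIR replicate 7, and the other 9 controls lay at 33.6 CPM or below. The log2FC was 7.54 without that library. Igkc, the kappa light chain, ran from 34.6 to 278 CPM (median 61.03) in PBS.AIR and from 423 to 1366 CPM (median 892) in HDM.CS.DEX (log2FC 3.64 ± 0.31, adjusted p = 1.03e-20). Ighg2b and Ighg2c had log2FC values of 3.41 and 3.95. Constant genes share near-identical stretches, so reads can be split between them uncertainly. Jchain, which joins IgA and IgM into polymers, ran from 24.1 to 257 CPM (median 69.002) in PBS.AIR and from 374 to 1224 CPM (median 812) in HDM.CS.DEX (log2FC 3.58 ± 0.30, adjusted p = 7.75e-21). Mzb1 and Derl3, chaperone and degradation factors of the plasma cell endoplasmic reticulum, rose by log2FC 2.00 and 1.88. Each of these genes had a lower point estimate than in HDM.CS, and the difference was called for Ighg2b (log2FC -1.48, adjusted p = 0.0127), Jchain (log2FC -1.12, adjusted p = 0.0313) and Mzb1 (log2FC -1.15, adjusted p = 0.000646). In the B and plasma cell list as a whole, 4 of 13 genes were called higher (Jchain, Mzb1, Derl3 and Tnfrsf17) and 2 lower (Pax5 and Fcrla). Against HDM.CS none was higher and 10 of 13 were lower, where 1.92% of all genes were called lower.

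Lymphoid tissue genes moved in both directions. Of 13 genes tested 4 were called higher and 2 lower, against 7.57% and 4.04% of all genes. Cxcl13, the chemokine of B cell follicles, ran from 4.31 to 9.00 CPM (median 6.30) in PBS.AIR and from 6.89 to 49.2 CPM (median 23.04) in HDM.CS.DEX (log2FC 1.78 ± 0.53, adjusted p = 0.00275). Il21, the cytokine of follicular helper T cells, ran from 0 to 0.203 CPM (median 0.0348) in PBS.AIR and from 0.12 to 1.02 CPM (median 0.497) in HDM.CS.DEX (log2FC 3.13 ± 0.67, adjusted p = 2.98e-05). Lta, the lymphotoxin that organises lymphoid tissue, had a log2FC of 1.25, and Fcer2a, the low-affinity IgE receptor, 1.44. Cr2, the complement receptor of mature B cells and follicular dendritic cells, ran from 6.37 to 14.5 CPM (median 9.20) in PBS.AIR and from 2.19 to 8.95 CPM (median 3.92) in HDM.CS.DEX (log2FC -1.29 ± 0.48, adjusted p = 0.0193). It was lower than in HDM.CS as well (log2FC -1.98, adjusted p = 0.00161). The list's median log2FC was 0.116 with all libraries and -0.078 without HDM.CS.DEX replicate 8, so no direction is given for the list as a whole.

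T cell genes lay near control levels except for checkpoint receptors. The T cell and checkpoint list had a median log2FC of 0.012 in HDM.CS.DEX, beside 1.24 in HDM.CS and -1.08 in PBS.AIR.DEX, each against PBS.AIR. Of its 14 genes 3 were called higher and none lower, against 7.57% and 4.04% of all genes. In HDM.CS.DEX against HDM.CS 10 of 14 were called lower, where 1.92% of all genes were. Cd3e, a chain of the T cell receptor complex, ran from 4.17 to 7.04 CPM (median 4.62) in PBS.AIR and from 3.97 to 6.27 CPM (median 4.91) in HDM.CS.DEX, and the ranges overlapped. Pdcd1, which encodes PD-1, ran from 0.111 to 1.21 CPM (median 0.53) in PBS.AIR and from 1.40 to 3.99 CPM (median 2.35) in HDM.CS.DEX (log2FC 2.19 ± 0.38, adjusted p = 4.2e-07). Ctla4, which competes with CD28 for its ligands, ran from 0.454 to 1.53 CPM (median 0.831) in PBS.AIR and from 1.61 to 4.17 CPM (median 2.25) in HDM.CS.DEX (log2FC 1.45 ± 0.41, adjusted p = 0.00159). Both had every treated library above every control. Tigit ran from 0.0731 to 0.822 CPM (median 0.288) in PBS.AIR and from 0.757 to 2.32 CPM (median 1.10) in HDM.CS.DEX (log2FC 2.11 ± 0.45, adjusted p = 3.06e-05), with overlap between the highest control and the lowest treated libraries. Icos, a costimulator of follicular helper T cells, had a log2FC of 0.77 (adjusted p = 0.00705), under the limit for a call, against 2.22 in HDM.CS.

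Cytotoxic genes were below the untreated lung, and interferon gamma genes were in part. In the interferon gamma and CXCR3 list none of 14 genes was called higher and 5 were called lower, against 4.04% lower among all genes. Gzma, a granzyme of natural killer and T cells, ran from 57.2 to 152.7 CPM (median 78.6) in PBS.AIR and from 2.34 to 20.2 CPM (median 8.15) in HDM.CS.DEX (log2FC -3.63 ± 0.38, adjusted p = 1.01e-15). Prf1, the pore-forming perforin, ran from 8.59 to 20.2 CPM (median 12.3) in PBS.AIR and from 0.681 to 2.51 CPM (median 1.31) in HDM.CS.DEX (log2FC -3.21 ± 0.32, adjusted p = 1.27e-16). Nkg7, a granule protein of the same cells, ran from 10.8 to 20.8 CPM (median 14.9) in PBS.AIR and from 1.13 to 6.70 CPM (median 3.35) in HDM.CS.DEX (log2FC -2.22 ± 0.27, adjusted p = 2.69e-12). For all 3, the treated and control libraries did not overlap. These genes were also lower in HDM.CS than in PBS.AIR (log2FC -2.54, -2.24 and -1.15) and lower in PBS.AIR.DEX than in PBS.AIR (-2.003, -1.95 and -1.72). Gbp4, an interferon-induced guanylate-binding protein, ran from 163.01 to 744 CPM (median 299) in PBS.AIR and from 39.7 to 89.5 CPM (median 59.3) in HDM.CS.DEX (log2FC -2.35 ± 0.28, adjusted p = 8.56e-13). For Gbp4 the log2FC was -0.53 in HDM.CS and -2.89 in PBS.AIR.DEX. Ifng itself ran from 0.237 to 1.03 CPM (median 0.447) in PBS.AIR and from 0.156 to 0.606 CPM (median 0.4657) in HDM.CS.DEX, overlapping fully. Type I interferon genes were lower by less: 8 of 12 passed the adjusted p as lower and 1 as higher, against 24.9% and 26.4% of all genes, but 1 alone, Ifi44 (log2FC -1.34), reached the limit for a call. Isg15, a ubiquitin-like protein of that response, had a log2FC of -0.86 with no overlap (adjusted p = 0.00133).

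MHC class II genes, which present extracellular antigen to helper T cells, lay at or below control. Of 9 genes 2 were called lower, both of the H2-O complex that restrains peptide loading, and none higher, against 4.04% and 7.57% of all genes. H2-Ob ran from 9.23 to 15.4 CPM (median 12.5) in PBS.AIR and from 2.52 to 11.4 CPM (median 5.04) in HDM.CS.DEX (log2FC -1.40 ± 0.35, adjusted p = 0.000351). H2-Oa ran from 2.01 to 4.71 CPM (median 3.29) in PBS.AIR and from 0.949 to 2.76 CPM (median 1.41) in HDM.CS.DEX (log2FC -1.11 ± 0.36, adjusted p = 0.00619). In each case 1 or more treated libraries reached into the control range. H2-Aa, the alpha chain of I-A, ran from 223 to 431 CPM (median 352) in PBS.AIR and from 182.6 to 395 CPM (median 243) in HDM.CS.DEX with a log2FC of -0.45, and Cd74, the invariant chain, had -0.09, neither of which was called. Against HDM.CS all 9 passed the adjusted p as lower, 5 of them past the log2FC limit. Of all genes 5.4% passed as lower in that comparison and 2.46% as higher. Class II promoters share a Y box, the inverted CCAAT element bound by NF-Y, beside the X box that recruits CIITA, and the stretches upstream of 3 of these genes are shown because all 9 members were lower than in HDM.CS. They are from RefSeq for GRCm38.p6, written 5′ to 3′ on the gene's own strand and ending at the base before the annotated start, with CTGATTGG in capitals. Of 32851 promoters searched over 250 bases before the start on both strands, 3.83% hold it, and of the 9 list members 6 had a promoter there and 3 hold it.
H2-Aa, chr17:34287824-34287903, minus strand: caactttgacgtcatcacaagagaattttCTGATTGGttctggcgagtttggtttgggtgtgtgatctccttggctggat
H2-Eb1, chr17:34305787-34305866, plus strand: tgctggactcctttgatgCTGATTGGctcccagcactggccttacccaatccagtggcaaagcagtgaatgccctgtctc
H2-Oa, chr17:34092299-34092378, plus strand: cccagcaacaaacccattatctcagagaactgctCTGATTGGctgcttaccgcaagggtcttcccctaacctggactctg
The element begins 51, 62 and 46 bases before the start of H2-Aa, H2-Eb1 and H2-Oa. Against PBS.AIR, H2-Oa was called lower, H2-Aa was not, and H2-Eb1 had a log2FC of -0.58. H2-Ob, which was also called lower, is not among the 3 members found to hold the element.

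Type 2 genes were few and divided. Of 14 listed genes, Il9 and Il25 were too low to test, and of 12 tested 2 were called higher and 4 lower (3 without both libraries that stood apart). Among all genes 7.57% were called higher and 4.04% lower. Il33, the alarmin of alveolar type II cells and fibroblasts, ran from 44.8 to 83.6 CPM (median 59.5) in PBS.AIR and from 97.4 to 417 CPM (median 132.97) in HDM.CS.DEX (log2FC 1.26 ± 0.19, adjusted p = 1.15e-08). Its highest treated value came from HDM.CS.DEX replicate 8, and the log2FC was 1.06 without that library. Il13ra2, the decoy receptor of IL-13, had a log2FC of 2.503 at levels of at most 0.623 CPM. Il13 was close to the floor of detection, with a highest library of 0.135 CPM in PBS.AIR and 0.0848 CPM in HDM.CS.DEX. Il1rl1, the IL-33 receptor, ran from 5.53 to 11.7 CPM (median 6.74) in PBS.AIR and from 1.28 to 4.14 CPM (median 2.99) in HDM.CS.DEX (log2FC -1.45 ± 0.21, adjusted p = 1.27e-09). Gata3, the transcription factor of type 2 lymphocytes, ran from 6.72 to 15.1 CPM (median 12.6) in PBS.AIR and from 2.63 to 5.34 CPM (median 4.83) in HDM.CS.DEX (log2FC -1.33 ± 0.14, adjusted p = 1.43e-15). Both were lower in every treated library. In the eotaxin and eosinophil list 1 of 9 genes tested was called higher (Prg2, log2FC 1.26) and 3 lower (Ear6, Il5ra and Ccr3), while Epx, which encodes eosinophil peroxidase, was too low to test. Ccl11, the eotaxin, ran from 0.795 to 2.84 CPM (median 1.31) in PBS.AIR and from 1.61 to 13.6 CPM (median 3.71) in HDM.CS.DEX and did not reach a call (log2FC 1.30, adjusted p = 0.067). Ccl11 was called higher in 7 of 31 alternative settings, among them leaving out HDM.CS.DEX replicate 4 (1.47) and edgeR and DESeq2 (1.53 and 1.52). It was lower than in HDM.CS (log2FC -1.42, adjusted p = 0.0274).

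Epithelial secretory genes remained raised in part. Of 12 genes in the mucus list 6 were called higher and none lower, against 7.57% and 4.04% of all genes. The list's median log2FC was 1.31, beside 1.68 in HDM.CS. Slc26a4, the anion exchanger pendrin of goblet cells, ran at 4.85 to 13.0 CPM in PBS.AIR and at 80.7 to 157.3 CPM in HDM.CS.DEX (log2FC 3.99 ± 0.36, adjusted p = 2.36e-19). Itln1, an intelectin found in airway mucus, ran from 0.318 to 1.97 CPM (median 0.645) in PBS.AIR and from 2.27 to 6.40 CPM (median 4.12) in HDM.CS.DEX (log2FC 2.62 ± 0.57, adjusted p = 4e-05). Muc5b, the mucin of homeostatic airway clearance, ran from 6.78 to 36.7 CPM (median 13.2) in PBS.AIR and from 32.3 to 49.8 CPM (median 38.95) in HDM.CS.DEX (log2FC 1.51 ± 0.29, adjusted p = 3.78e-06). A single control library, replicate 7, overlapped the treated range for Muc5b. Muc5ac, the inducible goblet cell mucin, ran from 0.59 to 2.22 CPM (median 1.09) in PBS.AIR and from 2.31 to 3.61 CPM (median 2.89) in HDM.CS.DEX, so that every treated library was above every control, yet its adjusted p was 0.0658 and it was not called (log2FC 1.30 ± 0.61). Of the 31 alternative settings run for Muc5ac, 6 called it higher, among them edgeR and DESeq2 with log2FC values of 1.17 and 1.15. Clca1, a goblet cell protein that processes mucus, ran from 1.03 to 19.3 CPM (median 3.76) in PBS.AIR and from 0.17 to 4.02 CPM (median 0.847) in HDM.CS.DEX and did not pass in the main limma-voom fit (log2FC -2.51, adjusted p = 0.144). Clca1 was called lower in 3 of 31 alternative settings, among them edgeR and DESeq2 (-2.58 and -2.56). It was lower than in HDM.CS (log2FC -4.24, adjusted p = 0.0325). Among club cell markers 2 of 7 were called higher, Scgb3a1, a secretoglobin that ran from 33.97 to 290.4 CPM (median 71.8) in PBS.AIR and from 489.7 to 933 CPM (median 709.6) in HDM.CS.DEX (log2FC 3.19 ± 0.29, adjusted p = 9.11e-19), and Reg3g, an antibacterial lectin (log2FC 2.68). Cyp2f2, a club cell enzyme, was lower without a call (log2FC -0.38), and the summed level of the list was 19545 to 35140 CPM (median 27072) in PBS.AIR and 20444 to 33149 CPM (median 26468) in HDM.CS.DEX. Among ciliated cell markers 7 of 8 genes tested passed the adjusted p as higher and 1 as lower (26.4% and 24.9% of all genes), none past the log2FC limit with all libraries and 1 without either library that stood apart, with Foxj1 at 0.73 and summed levels of 502 to 633 CPM (median 560.2) in PBS.AIR and 431 to 628 CPM (median 549.9) in HDM.CS.DEX. What part a share of airway in the dissected pieces had in these values was not tested.

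Genes that answer smoke through the aryl hydrocarbon receptor, a ligand-activated transcription factor, remained high in part. Of 8 genes tested 3 were called higher (2 without PBS.AIR replicate 7) and none lower, against 7.57% and 4.04% of all genes. Cyp1a2 was too low to test. Cyp1b1, a monooxygenase of stromal cells and macrophages, ran from 4.90 to 9.29 CPM (median 6.54) in PBS.AIR and from 25.8 to 40.2 CPM (median 35.1) in HDM.CS.DEX (log2FC 2.28 ± 0.21, adjusted p = 4.06e-18). Ahrr, the repressor of the receptor, ran from 0.212 to 0.7 CPM (median 0.377) in PBS.AIR and from 0.584 to 2.57 CPM (median 2.01) in HDM.CS.DEX (log2FC 2.04 ± 0.27, adjusted p = 2.79e-11). The ranges of Cyp1b1 were apart and those of Ahrr met at their ends. Cyp1a1, its classic target, ran from 6.49 to 14.3 CPM (median 10.8) in PBS.AIR and from 3.61 to 144.8 CPM (median 27.3) in HDM.CS.DEX (log2FC 1.53 ± 0.65, adjusted p = 0.0397), a spread among treated libraries far wider than among the controls. Its call was lost on leaving out any 1 of 9 libraries (PBS.AIR replicates 4, 7, 8 and 9 and HDM.CS.DEX replicates 1, 2, 4, 9 and 10), with a log2FC down to 1.27 without HDM.CS.DEX replicate 9 (adjusted p = 0.103). Upstream stretches of the 3 called genes are shown with the core of the receptor's response element, GCGTG on either strand, in capitals, from the same RefSeq table and written the same way. This short core is common, present within 250 bases before the start in 28.2% of the 32851 promoters, and 5 of the 7 list members with a promoter there hold it, called or not.
Cyp1a1, chr9:57697523-57697612, plus strand: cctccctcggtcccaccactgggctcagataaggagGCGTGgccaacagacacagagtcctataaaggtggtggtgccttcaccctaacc
Cyp1b1, chr17:79715062-79715151, minus strand: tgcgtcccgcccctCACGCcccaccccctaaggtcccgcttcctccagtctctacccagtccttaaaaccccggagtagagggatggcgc
Ahrr, chr13:74292332-74292451, minus strand: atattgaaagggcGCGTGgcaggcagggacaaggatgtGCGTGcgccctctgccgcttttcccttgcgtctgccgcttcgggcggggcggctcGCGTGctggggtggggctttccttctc
The core begins 54 bases before the start of Cyp1a1 and 76 before that of Cyp1b1, where it lies on the opposite strand, and the Ahrr stretch holds it at 3 places, the nearest 27 bases before the start. A match describes letters and not binding.

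Of 14 NRF2 antioxidant genes 3 were called higher and 1 lower (7.57% and 4.04% of all genes), and 9 passed the adjusted p as higher (26.4% of all genes). Slc7a11, the cystine importer for glutathione synthesis, ran from 2.69 to 7.78 CPM (median 4.55) in PBS.AIR and from 29.8 to 82.2 CPM (median 35.2) in HDM.CS.DEX (log2FC 3.14 ± 0.29, adjusted p = 2.25e-18). Hmox1, the haem-degrading oxygenase, ran from 29.1 to 36.2 CPM (median 32.7) in PBS.AIR and from 91.5 to 230.4 CPM (median 111.6) in HDM.CS.DEX (log2FC 1.97 ± 0.21, adjusted p = 4.44e-15). Both were separated in all libraries. Nqo1, a quinone reductase, ran from 3.85 to 6.27 CPM (median 4.73) in PBS.AIR and from 5.84 to 23.5 CPM (median 8.96) in HDM.CS.DEX (log2FC 1.09 ± 0.43, adjusted p = 0.0267), and lost its call without HDM.CS.DEX replicate 9 (log2FC 0.95) or 10 (0.98). Gclc, the catalytic subunit of glutathione synthesis, had a log2FC of 0.89, just under the limit, with no overlap. Gsta3, a glutathione transferase, fell and ran from 155.2 to 220.2 CPM (median 187.2) in PBS.AIR and from 50.7 to 160.3 CPM (median 77.6) in HDM.CS.DEX (log2FC -1.09 ± 0.21, adjusted p = 4.72e-06).

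Alveolar epithelium, endothelium and stroma moved by smaller factors. In the alveolar type II list 9 of 11 genes passed the adjusted p as higher, against 26.4% of all genes, and none as lower, and Sftpd, a collectin, was the single call: it ran from 685 to 1298 CPM (median 875) in PBS.AIR and from 2046 to 4559 CPM (median 2696) in HDM.CS.DEX (log2FC 1.55 ± 0.15, adjusted p = 1.06e-17). Abca3, the lipid transporter of lamellar bodies, had a log2FC of 0.96 with no overlap. Dexamethasone alone gave a median log2FC of 0.762 for this list, beside 0.725 in HDM.CS.DEX and 0.35 in HDM.CS. In the alveolar type I list no gene of 9 was called, with Ager at -0.18 and Hopx at -0.36. All 9 capillary endothelial genes that passed the adjusted p, of 10 tested, were lower, and all 9 had no overlap. Of all genes 24.9% passed as lower and 7.37% had no overlap as lower. The summed level of that list was 1603 to 2388 CPM (median 2091) in HDM.CS.DEX, below the 3459.7 to 4077 CPM (median 3834) in PBS.AIR. Hpgd, the enzyme that inactivates prostaglandins, ran from 477 to 759 CPM (median 640.0) in PBS.AIR and from 113.7 to 295 CPM (median 202.8) in HDM.CS.DEX (log2FC -1.68 ± 0.25, adjusted p = 4.22e-09). Ednrb, the endothelin receptor of aerocytes, ran from 81.5 to 140.4 CPM (median 122.5) in PBS.AIR and from 22.4 to 52.7 CPM (median 43.1) in HDM.CS.DEX (log2FC -1.50 ± 0.16, adjusted p = 1.47e-14). Pecam1 and Cdh5, pan-endothelial adhesion proteins, were lower by less, with log2FC values of -0.81 and -0.69. Of 9 alveolar fibroblast genes 8 passed the adjusted p as lower (24.9% of all genes) and 1 was called, Tcf21, a transcription factor of lipofibroblasts, which ran from 82.03 to 143.2 CPM (median 113.5) in PBS.AIR and from 23.5 to 64.98 CPM (median 46.7) in HDM.CS.DEX (log2FC -1.30 ± 0.17, adjusted p = 6.02e-11). The gene with the smallest p among those lower was Palmd, a palmdelphin, which ran from 52.3 to 79.01 CPM (median 68.5) in PBS.AIR and from 20.6 to 28.2 CPM (median 24.1) in HDM.CS.DEX (log2FC -1.47 ± 0.09, adjusted p = 4.07e-34). No endothelial or fibroblast gene of these lists was called between HDM.CS.DEX and HDM.CS, with list medians of -0.144 and -0.004 in that comparison.

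Matrix genes rose in part. Of 17 genes in the collagen and matrix list 4 were called higher and 1 lower, against 7.57% and 4.04% of all genes. The adjusted p alone was passed by 12 as higher, against 26.4% of all genes. The higher calls were 3 without PBS.AIR replicate 7. Timp1, an inhibitor of metalloproteinases, ran from 1.62 to 11.1 CPM (median 4.52) in PBS.AIR and from 24.1 to 127.2 CPM (median 42.7) in HDM.CS.DEX (log2FC 3.16 ± 0.46, adjusted p = 1.35e-09). Tnc, tenascin C of injured matrix, ran from 7.24 to 20.0 CPM (median 10.9) in PBS.AIR and from 27.3 to 148.7 CPM (median 48.1) in HDM.CS.DEX (log2FC 2.16 ± 0.29, adjusted p = 8.65e-11). Col1a1 ran from 36.4 to 65.1 CPM (median 46.9) in PBS.AIR and from 61.2 to 219 CPM (median 88.7) in HDM.CS.DEX with a log2FC of 0.98, under the limit. It was called in 7 of 31 alternative settings. These included leaving out any 1 of PBS.AIR replicates 5 and 6 or HDM.CS.DEX replicates 4, 9 and 10 (up to 1.05 without the ninth). Postn, periostin, fell and ran from 304 to 411 CPM (median 374) in PBS.AIR and from 133.9 to 209.8 CPM (median 158.8) in HDM.CS.DEX (log2FC -1.12 ± 0.12, adjusted p = 2.71e-15). HDM.CS.DEX replicate 8 gave the highest treated value of Timp1, Tnc and Col1a1. Without it 2 matrix genes were called higher, with Timp1 at a log2FC of 2.96 and Tnc at 1.96, and Lox, a collagen crosslinking enzyme, moved from 1.06 to 0.97 and lost its call. Of 14 cell cycle genes none was called, at a median log2FC of 0.124 that became -0.133 without this library. Mki67, a proliferation marker, ran from 10.8 to 34.4 CPM (median 22.4) in PBS.AIR and from 12.7 to 95.4 CPM (median 22.6) in HDM.CS.DEX.

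Marker lists of tissues that can come with a dissection stayed low. The 9 cardiac muscle genes summed to 32.7 to 52.5 CPM (median 43.98) in PBS.AIR and 30.9 to 45.6 CPM (median 42.8) in HDM.CS.DEX, with no call. The 9 smooth muscle genes summed to 228 to 319.8 CPM (median 253) and 181.7 to 474 CPM (median 273), with 1 call, Actg2, at a log2FC of 1.01 that was lost on leaving out any 1 of 9 libraries (PBS.AIR replicates 1, 2, 7, 8 and 9 and HDM.CS.DEX replicates 2, 3, 6 and 8), down to 0.84 without HDM.CS.DEX replicate 8. The 7 adipose genes summed to 16.6 to 30.4 CPM (median 23.3) and 11.8 to 24.6 CPM (median 19.8). Of these Cidec, a lipid droplet protein, was called lower (log2FC -3.22), while Adipoq, which defines fat, did not exceed 0.606 CPM in any library of either group. The 7 thymocyte genes summed to 17.5 to 24.3 CPM (median 20.9) in PBS.AIR and 13.4 to 26.4 CPM (median 22.3) in HDM.CS.DEX. Of these Rag1, Rag2 and Ptcra were too low to test, and Dntt alone of 4 tested was called lower. Rag1 had no count in any HDM.CS.DEX library and at most 0.805 CPM in PBS.AIR.

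Red blood cell genes had the lowest median of the lists. All 6 genes were called lower, against 4.04% among all genes, with a median log2FC of -3.93 and no overlap for any of them. Among all genes 2.36% were called lower with no overlap. The list summed to 5452 to 27314 CPM (median 11797) in PBS.AIR and 262 to 1993 CPM (median 991) in HDM.CS.DEX. Hbb-bs, an adult beta globin (chromosome 7, bases 103826534 to 103828096), ran from 2833 to 15503 CPM (median 6373) in PBS.AIR and from 138.98 to 1070.4 CPM (median 505) in HDM.CS.DEX (log2FC -3.85 ± 0.39, adjusted p = 3.4e-16). Hbb-bt, a second copy, had a log2FC of -4.40. Alas2, the erythroid enzyme that starts haem synthesis, ran from 64.5 to 209.9 CPM (median 93.6) in PBS.AIR and from 1.70 to 20.4 CPM (median 6.76) in HDM.CS.DEX (log2FC -4.01 ± 0.36, adjusted p = 3.44e-19). PBS.AIR replicate 1 held the highest level of Hbb-bs and Alas2. The exposures without the steroid left the list near control, with a median log2FC of -0.341 in HDM.CS and no call, whereas dexamethasone alone gave -2.33 with 6 of 6 called lower. Against HDM.CS the HDM.CS.DEX libraries had a median of -3.62, again with all 6 called. With the steroid in both groups the list was lower still in the exposed lung. Against PBS.AIR.DEX its median was -1.67 with 6 of 6 called lower, and against PBS.CS.DEX -1.26 with 5 called lower. Against HDM.AIR.DEX it was 0.416 with no call. The interaction was not significant for any of the 6. Alpha and beta globin copies are near-identical, so reads can be split between copies uncertainly. Bcan, a proteoglycan, and Cd209f, a C-type lectin of macrophages, were the other large falls outside red blood cell genes, with log2FC values of -5.12 and -3.85, beside -4.42 and -3.62 in HDM.CS.

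**Figure D3:**
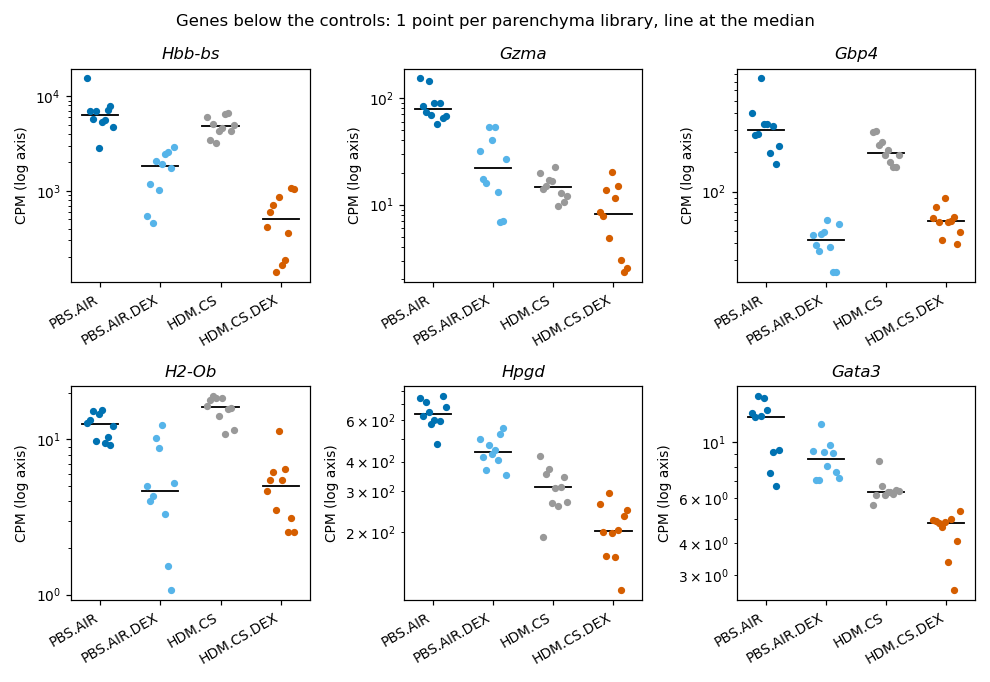
CPM on a log axis of 6 genes that were lower in HDM.CS.DEX than in PBS.AIR, in the 10 parenchyma libraries of each of 4 groups (points) with the group median (line). Hbb-bs is near control in HDM.CS and low in both steroid groups, Gzma and Gbp4 are low in steroid groups, with Gzma low in HDM.CS as well, and Hpgd and Gata3 step down from PBS.AIR to PBS.AIR.DEX, HDM.CS and HDM.CS.DEX by median.

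Glucocorticoid target genes were called lower more often than higher. Of 18 genes 2 were called higher (Mt2 and Mt1) and 6 lower (5 without PBS.AIR replicate 7), with a median log2FC of -0.597. Among all genes 7.57% were called higher and 4.04% lower, so the higher calls lie near the share over all genes. Mt2, a metallothionein, ran from 3.34 to 17.3 CPM (median 8.77) in PBS.AIR and from 22.2 to 66.8 CPM (median 30.4) in HDM.CS.DEX (log2FC 1.93 ± 0.29, adjusted p = 7.26e-09). Tsc22d3, which encodes the leucine zipper protein GILZ, ran from 127.01 to 555 CPM (median 284) in PBS.AIR and from 76.99 to 101 CPM (median 86.9) in HDM.CS.DEX (log2FC -1.66 ± 0.24, adjusted p = 1.9e-09). Zbtb16, a transcription factor induced by the receptor, ran from 12.1 to 100.4 CPM (median 28.96) in PBS.AIR and from 3.67 to 20.6 CPM (median 6.47) in HDM.CS.DEX (log2FC -2.18 ± 0.44, adjusted p = 1.05e-05). Fkbp5, a cochaperone of the receptor, ran from 12.2 to 71.6 CPM (median 18.4) in PBS.AIR and from 34.9 to 92.2 CPM (median 40.8) in HDM.CS.DEX with a log2FC of 0.80 (adjusted p = 0.00106), and for PBS.AIR.DEX against PBS.AIR it was 0.08. Control levels of these genes fell into separate ranges. PBS.AIR replicates 7 to 10 held 425 to 555 CPM of Tsc22d3, 68.2 to 100.4 CPM of Zbtb16 and 40.3 to 71.6 CPM of Fkbp5. The other 6 control libraries held 127.01 to 313, 12.1 to 39.4 and 12.2 to 19.0 CPM. Clock genes divided the same control libraries: Per2, a repressor of the clock, stood at 119.6 to 145.2 CPM in replicates 7 to 10 and 51.4 to 71.2 CPM in the others, and Dbp, a clock output factor, at 40.9 to 73.2 and 4.71 to 8.51 CPM. In HDM.CS.DEX, replicates 3, 5, 6 and 7 held 60.3 to 108.7 CPM of Dbp and the other 6 held 1.67 to 9.58 CPM. The time of day of collection is not given in the sources used here, and its part in these values was not tested.

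**Figure D4:**
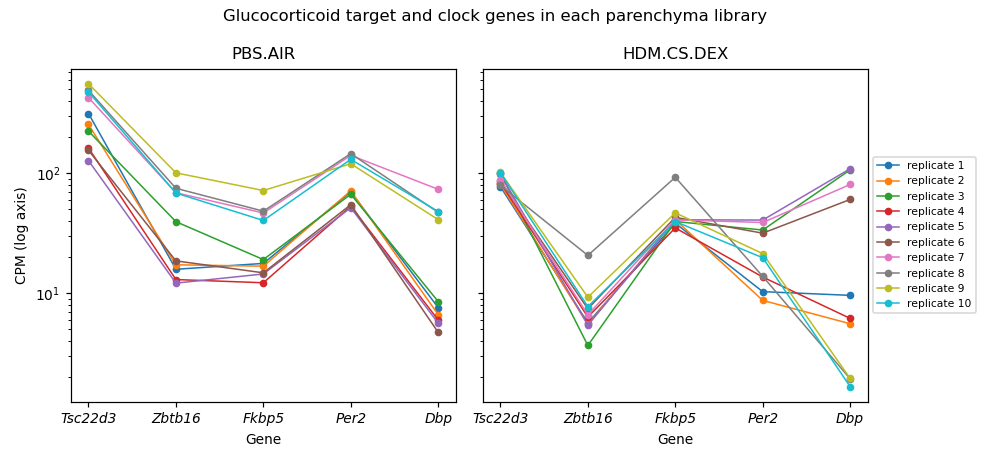
CPM on a log axis of 3 glucocorticoid target genes (Tsc22d3, Zbtb16, Fkbp5) and 2 clock genes (Per2, Dbp), with 1 line per parenchyma library of PBS.AIR (left) and HDM.CS.DEX (right). In PBS.AIR, replicates 7 to 10 run above the other 6 at every gene, and in HDM.CS.DEX the libraries divide at Dbp.

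Clock genes as a list had 3 of 15 called higher (2 without HDM.CS.DEX replicate 8) and 5 lower (4 without it or without PBS.AIR replicate 7). Among all genes 7.57% were called higher and 4.04% lower. Per2 ran from 51.4 to 145.2 CPM (median 70.4) in PBS.AIR and from 8.70 to 40.6 CPM (median 20.5) in HDM.CS.DEX (log2FC -2.05 ± 0.35, adjusted p = 2.1e-07). Hlf, a clock output factor, ran from 10.3 to 48.99 CPM (median 20.4) in PBS.AIR and from 1.35 to 7.65 CPM (median 5.19) in HDM.CS.DEX (log2FC -2.52 ± 0.39, adjusted p = 1.59e-08). For both, every treated library lay below every control, including the control libraries with low levels. Bhlhe41, a clock repressor, ran from 13.7 to 29.3 CPM (median 16.9) in PBS.AIR and from 35.9 to 90.4 CPM (median 65.5) in HDM.CS.DEX (log2FC 1.79 ± 0.18, adjusted p = 7.2e-17). Nr1d1, which encodes REV-ERB alpha, had a log2FC of 2.27 with wide overlap, from 1.72 to 60.3 CPM in PBS.AIR and 8.37 to 136.9 CPM in HDM.CS.DEX. A term for each run of 20 library codes gave log2FC values of -1.64 for Tsc22d3, -2.26 for Zbtb16 and -2.08 for Per2. Without that term they were -1.66, -2.18 and -2.05. Each run holds equal numbers of libraries from every group in the fit, so the term leaves group differences nearly unchanged by construction. These values therefore cannot show what part the split among libraries at clock and glucocorticoid target genes had in the group differences.

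Few genes were higher in HDM.CS.DEX than in HDM.CS. The 4 protein-coding genes with the smallest p in that direction were Ano1, a chloride channel (log2FC 0.65), Serpinb9b, a serine protease inhibitor (1.79), S100a14, an epithelial calcium-binding protein (1.19), and Fgfbp1, a carrier of fibroblast growth factors (0.75). Against PBS.AIR, Serpinb9b ran from 2.23 to 4.61 CPM (median 3.27) in PBS.AIR and from 4.91 to 28.3 CPM (median 8.23) in HDM.CS.DEX (log2FC 1.47 ± 0.24, adjusted p = 5.61e-08). S100a14 ran from 15.6 to 25.2 CPM (median 18.6) in PBS.AIR and from 47.95 to 179.8 CPM (median 62.9) in HDM.CS.DEX (log2FC 1.78 ± 0.20, adjusted p = 2.23e-14). Each had its highest value in HDM.CS.DEX replicate 8, and both were above the controls in all 10 libraries. The comparison with HDM.CS and the interaction were not repeated without that library. In the other direction they included Alas2 and Hbb-bt, described above, and Flt3, a growth factor receptor of dendritic cell precursors (-1.81). Flt3 was 1.17 in HDM.CS and -0.64 in HDM.CS.DEX, both against PBS.AIR.

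The same contrast in airway tissue, 10 HDM.CS.DEX against 10 PBS.AIR airway libraries, differed from parenchyma at many genes. The test of parenchyma minus airway passed for 2304 genes (12.6%) with a higher log2FC in parenchyma and 2260 (12.4%) with a lower one. A test of that difference against a log2FC of 1 left 8 and 0. It compares fold changes and does not say which tissue had the higher level. The labels do not pair the tissues of a mouse, so libraries were treated as independent. Of the genes given a log2FC here, 24 passed with a higher log2FC in parenchyma and 13 with a lower one. The difference for Pigr was 2.06 on the log2 scale (adjusted p = 1.11e-14), and for Orm1 2.85 (adjusted p = 8.87e-05). Dmkn, an epidermal secreted protein, and Pla2g4a, the cytosolic phospholipase that frees arachidonic acid, had differences of 2.21 and 1.30. For Dmkn the airway was already high in PBS.AIR. Its median there was 68.2 CPM, and 84.3 CPM in HDM.CS.DEX airway, beside 13.9 and 78.9 CPM in parenchyma. Secretory genes were among them: the difference was 2.62 for Scgb3a1 (adjusted p = 5.66e-06) and 2.23 for Muc5b (adjusted p = 2.41e-06). Cntn1, a cell adhesion protein, had a difference of -1.60 (adjusted p = 1.13e-07), and Tcf21 of -1.08 (adjusted p = 0.000283). For Lcn2, Gpnmb and Hbb-bs the differences between tissues were 0.43, -0.62 and -0.20 and did not pass (adjusted p = 0.38, 0.197 and 0.831).

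Within steroid-treated mice, the step added by HDM and the step added by smoke can be set side by side for the leading genes. HDM added to smoke and steroid (HDM.CS.DEX against PBS.CS.DEX) gave a log2FC of 5.44 for Il17f, 7.96 for Ighg1, 1.67 for Orm1 and 3.52 for Gp2. Smoke added to HDM and steroid (HDM.CS.DEX against HDM.AIR.DEX) gave 1.59, -0.86 (not passed), 0.41 (not passed) and 0.22 (not passed) for the same genes. For Gpnmb the values were 1.00 with HDM added and -0.10 (not passed) with smoke added, for Mmp12 2.00 and -1.15, and for Cyp1b1 0.42 and 1.05. A value marked as not passed missed the adjusted p of 0.05. Whether the steps of HDM and of smoke differ from each other was not tested. HDM.AIR.DEX replicate 2 was shallow, with 13003154 estimated counts and a TMM scaling factor of 0.5717. Without it 0.592% of genes were called higher and 1.16% lower against HDM.AIR.DEX, but the values of single genes were not repeated without it.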

How the data were processed

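RNA-seq of 203 mouse lung libraries was deposited as a table of estimated counts per gene. Per the labels and the study's methods the authors demultiplexed with bcl2fastq 2.20.0.422, aligned to mm10 with STAR 2.5.1b and quantified genes with RSEM 1.2.31 and kallisto 0.44.0, and which of these gave the table is not given in the sources used here. Of the non-zero deposited values 20.3% were not whole, so these estimated counts were rounded, and reads shared by near-identical genes were shared out by the authors' estimation before deposit. Symbols and coordinates were taken from GENCODE M21 (GRCm38), where 42462 of 43346 gene identifiers matched without the version suffix and 23106 with it.

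The 160 libraries of the 16 groups at 11 weeks were fitted together in limma-voom (limma 3.58.1, edgeR 4.0.16 for TMM factors, R 4.3.3) with 1 mean per group, after dropping genes that did not reach 0.353 CPM, which is 10 counts at the median depth, in at least 9 libraries. p-values were adjusted over all 18250 genes kept. CPM use TMM-scaled totals. Values after ± are standard errors. Interaction and tissue differences passed at an adjusted p under 0.05 with no log2FC limit. The script was tested on simulated data. Within the parenchyma groups HDM.CS.DEX, PBS.AIR, HDM.CS and PBS.AIR.DEX, no pair of libraries agreed within counting noise (smallest chi-square per degree of freedom 8.28). Pairs in the other groups were not examined. A library was said to stand apart from the count of genes at least 2-fold above all others of its group on log2(CPM + 0.5). With 22011675 to 34942441 estimated counts a library, a level of 1 CPM rests on over 20 counts, and levels under 0.1 CPM on a few.

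The libraries were fixed by their titles. Members of the gene lists, and the rule for the genes that are named (defining markers of each list, up to 4 called members with the largest log2FC, the 8 largest rises and falls with no overlap between groups, and the smallest p in each direction), were chosen with earlier results of these data known. The calls were repeated with DESeq2 1.42.0, with quasi-likelihood fits in edgeR, and with a test against a log2FC of 1, DESeq2 size factors, a filter of 10 CPM, no filter, fewer groups in the fit, quality weights, and a term for runs of 20 library codes. For HDM.CS.DEX against PBS.AIR alone, they were also repeated leaving out each library of these groups. Leaving out both libraries that stood apart and leaving out the shallowest HDM.AIR.DEX library were added, chosen after seeing the data. Some results are not reported here.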

Additional observations from a re-analysis of the deposited data

Results flagged for a closer look

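For each gene described, the highest and lowest library of either group was set apart where its gap to the next library, as a share of the group's range, passed Dixon's 95% critical value for 10 samples. Chance does so in about 1 in 20 groups. It held for 25 values in HDM.CS.DEX and 41 in PBS.AIR, most of them in the libraries that stood apart.

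HDM.CS.DEX replicate 8 was the highest library of its group for Actg2 (19.4 CPM), Arg1 (18.8 CPM), Col1a1 (219 CPM), Fkbp5 (92.2 CPM), Il33 (417 CPM), Mt2 (66.8 CPM), S100a14 (179.8 CPM), Serpinb9b (28.3 CPM), Sftpd (4559 CPM), Timp1 (127.2 CPM), Tnc (148.7 CPM), Zbtb16 (20.6 CPM) and Mki67 (95.4 CPM), and the lowest for Pparg (12.1 CPM). Replicate 5 was highest for Cr2 (8.95 CPM) and H2-Ob (11.4 CPM), genes of B cells and antigen presentation. Replicate 2 was highest for Icos (8.45 CPM), Pdcd1 (3.99 CPM) and Tigit (2.32 CPM), receptors of activated T cells. Replicate 9 was highest for Ccl3 (45.9 CPM), Gpr55 (7.49 CPM) and Slc7a11 (82.2 CPM), replicate 3 for Ccl11 (13.6 CPM) and Clca1 (4.02 CPM), and replicate 7 for Muc5ac (3.61 CPM).

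PBS.AIR replicate 7 was the highest untreated library for Awat1 (1.11 CPM), C3ar1 (9.21 CPM), Cd68 (81.7 CPM), Chil3 (803 CPM), Ctsk (152.9 CPM), Cxcr1 (3.95 CPM), Derl3 (3.17 CPM), Fabp7 (0.822 CPM), Gp2 (8.47 CPM), Gpnmb (88.9 CPM), Gpr55 (3.90 CPM), Ighg1 (449 CPM), Ighg2b (29.1 CPM), Ighg2c (1.85 CPM), Igkc (278 CPM), Il17a (2.51 CPM), Il17f (1.40 CPM), Itln1 (1.97 CPM), Jchain (257 CPM), Muc5b (36.7 CPM), Orm1 (5.18 CPM), Pigr (218 CPM), Plet1 (121.4 CPM), Scgb3a1 (290.4 CPM), Spink5 (0.0822 CPM), Tigit (0.822 CPM) and Trem2 (17.4 CPM). Replicate 1 was highest for Alas2 (209.9 CPM), Cd209f (2.57 CPM), Hbb-bs (15503 CPM), Hbb-bt (1227 CPM) and Sftpc (21859 CPM), most of which are red blood cell genes. Replicate 4 was highest for Gbp4 (744 CPM), Prf1 (20.2 CPM) and Ifng (1.03 CPM), genes of cytotoxic cells and the interferon gamma response. Replicate 10 was highest for Il1rl1 (11.7 CPM), Prg2 (0.812 CPM) and Retnla (218 CPM), replicate 9 for S100a8 (140.7 CPM), replicate 6 for Tnc (20.0 CPM), and replicate 3 for Cidec (18.6 CPM). The source of these values was not tested.

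Some effects differed between settings by a test of the difference itself (limma-voom, adjusted p under 0.05), and each value is a difference of log2FC. The effect of HDM with smoke was lower with dexamethasone than without it for Awat1 (-4.38), C3 (-0.68), Cd68 (-1.06), Ctsk (-1.94), Cxcr1 (-3.93), Gpnmb (-2.19), Gpr55 (-1.37), Lcn2 (-1.51), Pigr (-0.81), Plet1 (-1.13) and Trim29 (-1.59), and higher for Serpinb9b (1.30). Each effect has its own baseline, PBS.AIR.DEX with the steroid and PBS.AIR without it. A negative value is therefore not by itself a lower level than in HDM.CS. Awat1, Ctsk, Cxcr1 and Gpnmb were higher in PBS.AIR.DEX than in PBS.AIR, as given above. The contrast of HDM.CS.DEX with PBS.AIR differed between parenchyma and airway, among other genes, for Cntn1 (-1.60), Dmkn (2.21), Muc5b (2.23), Orm1 (2.85), Pigr (2.06), Pla2g4a (1.30), Scgb3a1 (2.62) and Tcf21 (-1.08), where a negative value is a lower log2FC in parenchyma.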

How the results depend on the processing

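For HDM.CS.DEX against PBS.AIR, the genes whose log2FC is given kept their direction under each alternative run for them, with Ighd and H2-Eb1 not examined in this way. Calls of this comparison that changed without 1 library stand beside the gene. Values of single genes in the other comparisons, the interaction and the tissue difference were not repeated under the alternatives. Leaving out 1 library at a time, or both that stood apart, gave 1305 to 1402 genes higher and 680 to 780 lower in HDM.CS.DEX against PBS.AIR. The median log2FC of all genes moved by less than 0.1 under each scaling. Shares below divide each count of calls by the 18250 genes of the main fit, higher and then lower, whatever number a setting tested. A filter of 10 CPM tested 12187 genes, no filter 29921 and the 8 parenchyma groups 17226. With the compared groups alone, 16157 genes were tested against HDM.AIR.DEX and 16651 for the interaction.

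Stricter settings shortened the counts by their construction. A limma test against a log2FC of 1 called 2.62% and 0.86% in HDM.CS.DEX against PBS.AIR (7.57% and 4.04% in the report), 3.37% and 0.307% in HDM.CS against PBS.AIR, 0 and 0.11% in HDM.CS.DEX against HDM.CS, 0.0274% and 0.0712% in PBS.AIR.DEX against PBS.AIR, 1.70% and 0.153% against PBS.AIR.DEX, 0.455% and 0.00548% against PBS.CS.DEX, 0 and 0 against HDM.AIR.DEX, 0 and 0.00548% for the interaction, and 0.0438% and 0 between tissues. Where it called 0, the share at an unadjusted p under 0.05 was 0.0329% (higher, against HDM.CS), 0.0986% and 0.247% (against HDM.AIR.DEX), 0.0493% (interaction, higher) and 0.0603% (tissue, lower). A filter of 10 CPM left 3.38% and 1.70%, 3.97% and 0.937%, 0.0164% and 0.668%, 0.362% and 0.773%, 2.77% and 0.521%, 1.05% and 0.0986%, and 0.137% and 0.416% in the first 7 of these comparisons.

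Other counts moved with the model, and the cause was not tested. For HDM.CS.DEX against HDM.CS, 0.115% were higher in the report, 0.192% in edgeR, 0.230% in DESeq2 and 0.203% with quality weights. Against PBS.CS.DEX, quality weights gave 0.729% lower in place of 0.427%. Against HDM.AIR.DEX (0.581% and 1.2%), edgeR gave 2.22% lower, DESeq2 0.915% and 2.20%, no filter 1.88% lower, and the compared groups alone 0.356% and 0.784%. The interaction (0.422% and 0.805%) gave 0.811% higher in DESeq2, 0.515% lower with no filter, 1.38% and 2.42% with the compared groups alone, 0.789% and 1.42% with the 8 parenchyma groups, 2.68% and 4.15% with quality weights, and 0.696% and 1.44% with a term for runs of 20 library codes.

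The labels carry no replicate numbers. Runs of 20 library codes each hold 1 library of every 11-week group, so the term for runs is the fit closest to a block. Apart from the interaction, the term moved no count by over 1.5 times. With runs balanced in this way, the term can change the spread but hardly the log2FC values. Depth limits genes under about 0.1 CPM, whose levels rest on a few counts a library.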
